A study of Rattus norvegicus with 6 samples.

Results

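The genes described here are 30 markers of lymphocytes, the T, B and NK cells that patrol and reside in the liver, out of 15639 gene symbols with a usable probe on the arrays. They were chosen as a list of symbols, with earlier results of these data known, and found through the RefSeq accession of each probe. Of them, 17 mark T cells and 4 mark B cells. The other 9 mark NK cells and the cytotoxic programme that NK cells share with killer T cells. Liver RNA came from male Sprague-Dawley (Crl:CD(SD)) rats bought at 5 weeks of age. The TBBC group (n = 3 animals) received 300 mg/kg/day of TBBC, a phenolic antioxidant in which a sulfur atom bridges tert-butyl-m-cresol rings, and the vehicle group (n = 3 animals) received corn oil. The series text puts the measurement at 28 days, whereas the treatment protocol speaks of 9 weeks of dosing. Each animal had 1 Agilent array labelled with Cy3.

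Conventional T cells recognise antigen through a receptor whose signal leaves the membrane through the CD3 chains and passes to the kinases LCK and ZAP-70 and the adaptor LAT. B cells signal through an antigen receptor coupled to CD79A and CD79B. NK cells carry no such rearranged receptor; like cytotoxic T cells they kill with perforin and granzymes. The rat liver is known for a large resident population of NK cells in its sinusoids. In a piece of whole liver, fewer cells of a type and less RNA per cell cannot be told apart.

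The 75th percentile of the processed signal lay between 616.1 and 638.2 on TBBC arrays and between 465.2 and 598.1 on vehicle arrays. Every level below is the log2 of a probe's processed signal minus the log2 of that percentile of its array, and every difference is TBBC minus vehicle on this scale. The 3 TBBC arrays lay on 1 slide and the 3 vehicle arrays on another, so slide and treatment cannot be told apart. Markers of hepatocytes checked the tissue: all 12 were measured, with a summed level of 5950 to 6090 times the 75th percentile on TBBC arrays and 6780 to 7740 times on vehicle arrays. The label of the lymphocyte list held in part. A named probe existed for 27 of the 30 genes; Ms4a1 (CD20) and Cd79a of B cells and the transcription factor Eomes had none by accession. Of the 39 probes of these genes, 30 were well above background on every array of 1 group or both, and 22 genes could be tested. The defining T cell genes Cd2, Cd3e, Cd5 and Cd28 and the NK receptor Ncr1 were the 5 with a probe that could not.

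Cd3g and Cd3d, 2 of the 3 neighbouring CD3 genes, and Il7r were among the genes whose TBBC and vehicle levels did not overlap, and the windows around their starts are shown for that reason. Sequences are from RefSeq on GRCr8 and run from 250 bases before to 50 bases after the annotated start, 5′ to 3′ on the gene's strand. Capitals mark the letters AGGAAG (an ETS-type core), TGTGGT (a RUNX-type core) or CACCTG (an E-protein box), on either strand.
Cd3d (chr8:54185269-54185568, strand +): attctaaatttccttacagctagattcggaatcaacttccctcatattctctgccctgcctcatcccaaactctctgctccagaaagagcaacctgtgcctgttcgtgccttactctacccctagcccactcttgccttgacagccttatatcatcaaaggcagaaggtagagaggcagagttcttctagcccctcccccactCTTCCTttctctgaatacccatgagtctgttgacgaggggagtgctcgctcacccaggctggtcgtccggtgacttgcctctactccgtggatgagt
Cd3g (chr8:54183869-54184168, strand -): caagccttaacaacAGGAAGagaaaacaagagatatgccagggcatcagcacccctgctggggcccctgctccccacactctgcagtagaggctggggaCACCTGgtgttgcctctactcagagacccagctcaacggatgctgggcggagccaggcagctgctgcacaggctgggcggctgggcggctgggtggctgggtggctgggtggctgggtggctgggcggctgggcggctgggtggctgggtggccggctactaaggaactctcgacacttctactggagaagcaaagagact
Il7r (chr2:60204868-60205167, strand -): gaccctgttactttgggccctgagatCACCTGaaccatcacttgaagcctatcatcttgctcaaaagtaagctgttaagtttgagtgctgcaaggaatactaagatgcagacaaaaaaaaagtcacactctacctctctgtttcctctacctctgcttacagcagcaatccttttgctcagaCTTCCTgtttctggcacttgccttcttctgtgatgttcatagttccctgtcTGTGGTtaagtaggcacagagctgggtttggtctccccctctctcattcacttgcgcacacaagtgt
In GRCr8 the annotation holds no gene that starts between Cd3g, Cd3d and Cd3e other than these 3. Of the 30 members, 20 had a window in the table, 21 windows in all because Lck has 2. AGGAAG stood in 14 of the 21 windows, against 34.5% of all 33469 windows. CACCTG stood in 11 of the 21, against 18.8% of all, and TGTGGT in 10 of the 21, against 17.3% of all. The Cd3d window held 1 AGGAAG match and neither of the other motifs, that of Cd3g held 1 AGGAAG and 1 CACCTG, and that of Il7r held 1 of each. These matches describe letters and were not tested as binding sites.

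With TBBC, lymphocyte transcripts were mostly at lower levels than with corn oil, by small amounts, and 1 gene passed the test. Cd6, a surface glycoprotein of T cells, fell 2.98-fold (limma adjusted p = 0.0327), and the other 21 tested members did not pass. No member rose. Of the 22 tested members, 21 had a negative difference, where 57.6% of all 29326 features did. With spike-in scaling 16 of 22 were negative, a count to which the share of 57.6% does not apply. Below the median of all features lay 21 of 22 with either scaling, which differ by a shift of all features, and 17 of 22 with array weights. The members were chosen with earlier results of these data known and were all read on the same animals. These counts and those below are therefore descriptions and not tests. The median difference was -0.44 over the members and -0.06 over all features. Without Tbx21, whose probe is uncertain, it was -0.46 over the other 21 members. The members' median was -0.23 with spike-in scaling, which shifts all features together and puts their median at 0.15. Such a shift cannot change the distance between both medians, -0.38. In settings that can change it, the distance was -0.24 with normexp background correction, -0.26 without a filter on dim probes and -0.32 with quantile normalization. It was -0.45 without TBBC replicate 3.

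By the limma test, 3.08% of all features passed in either direction, 1.68% higher and 1.40% lower with TBBC, so that 1 call among 22 members is close to the background. At an unadjusted p under 0.05, 7 of the 22 members were lower (31.8%) and none was higher; of all features, 13.5% were lower and 9.48% higher at that level. All 3 TBBC arrays lay below all 3 vehicle arrays for 6 of the 22 members (27.3%), against 18.8% of all features. These 6 were Cd3d, Cd3g, Cd6, Il7r, Cd79b and Il2rb. For Cd79b the margin was narrow, with -2.29 in TBBC replicate 3 and -2.27 in vehicle replicate 3. For no member did all TBBC arrays lie above all vehicle arrays, a pattern that 12.3% of all features had. Lck, Ccr7 and Blk entered the test through the vehicle arrays alone, since each was well above background on 2 of 3 TBBC arrays. Over the 19 members above background on all 6 arrays the median was -0.43.

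Low signals went with lower TBBC values on these arrays as a whole. Probes well above background on no array, 19633 in all, had a median difference of -0.18. Among tested features with a mean level from -4 to -2, where 10 members lay, the median was -0.11 over all 7609 features and -0.44 over the members. From -2 to 0 it was -0.06 over 6666 features and -0.43 over 6 members. From 0 to 9 it was -0.02 over 12324 features and -0.29 over the 3 members Nkg7, Gzma and Tbx21. The bright probe of Tbx21, described below, is uncertain as a level of that gene. From -6 to -4 the median was -0.11 over 2613 features and -0.49 over 3 members. The part of signal level in the members' differences was not tested.

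**Figure D1:**
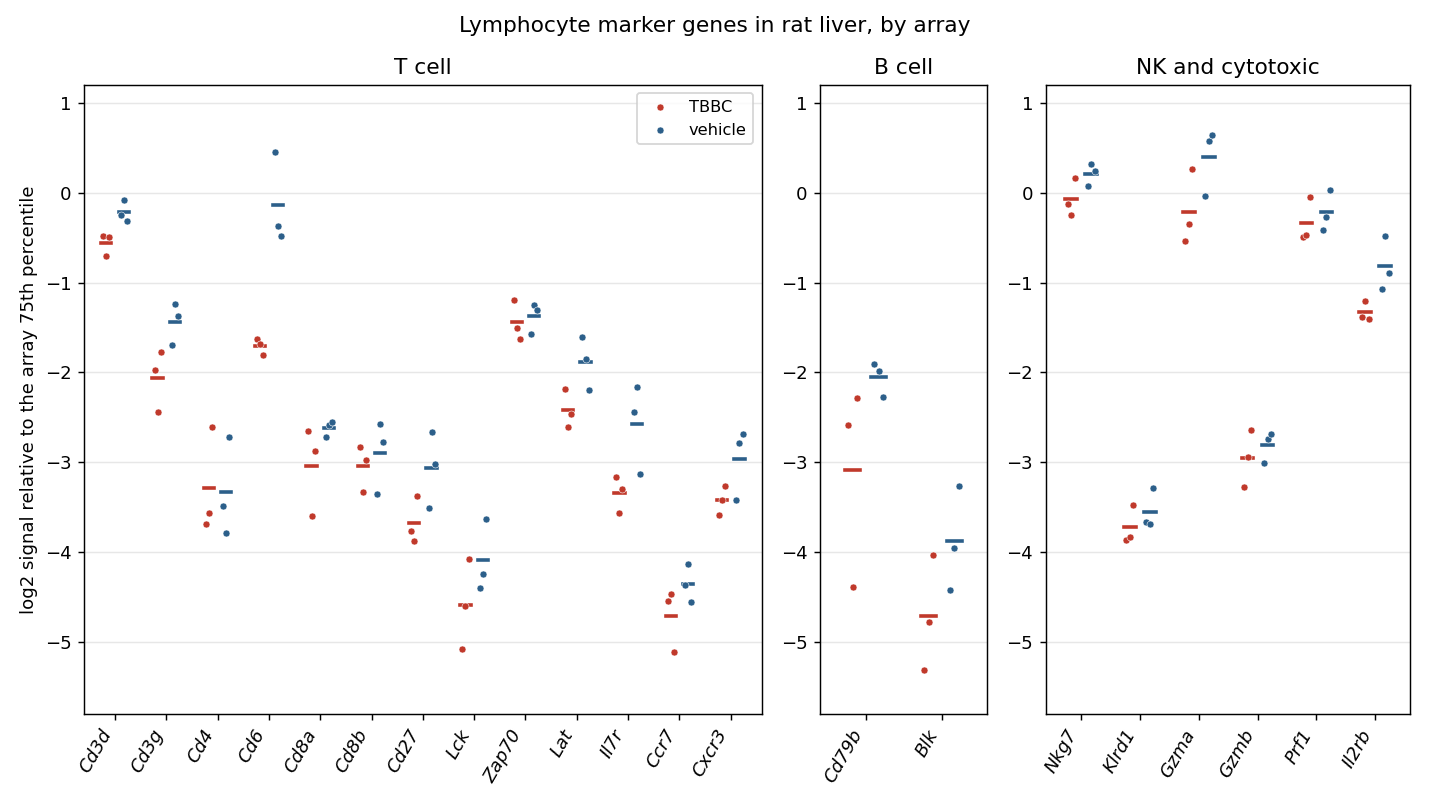
Log2 signal relative to the array's 75th percentile (y axis) for each tested member, 3 TBBC arrays (red, left) beside 3 vehicle arrays (blue, right); points are animals and bars are group means. Cd6 shows the largest difference of the group means among these genes, with TBBC levels from -1.81 to -1.63 and vehicle levels from -0.48 to 0.45; the probe of Tbx21, near 7, is left off the axis.

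The CD3 chains carry the signal of the T cell receptor. Cd3d had levels of -0.48, -0.70 and -0.49 in TBBC livers, against -0.25, -0.08 and -0.32 in vehicle livers. The groups did not overlap, and the difference was -0.34 ± 0.12 (SE, n = 3 per group, limma adjusted p = 0.176). Cd3g had -1.97, -2.44 and -1.77 in TBBC livers and -1.70, -1.24 and -1.37 in vehicle livers, again without overlap, with a difference of -0.62 ± 0.21 (limma adjusted p = 0.156). The probe of Cd3e was well above background on no array, with a signal of 5.6 to 9.8 in TBBC livers and 4.1 to 9.9 in vehicle livers. Cd3e therefore has no measured level beside the other chains of its complex.

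Cd5 and Cd6 encode related glycoproteins that tune signalling through the T cell receptor. Cd6 had levels of -1.63, -1.68 and -1.81 in TBBC livers, against 0.45, -0.37 and -0.48 in vehicle livers. The signals behind them were 199.5, 194.9 and 182.6 in TBBC livers and 790.1, 360.9 and 429.2 in vehicle livers. The TBBC animals lay within a narrow range, the vehicle animals were spread wider, and vehicle replicate 1 was the highest. The difference was -1.57 ± 0.25 (n = 3 per group). The call did not hold without vehicle replicate 2 (limma adjusted p = 0.0784), vehicle replicate 3 (0.0571), TBBC replicate 1 (0.0789), TBBC replicate 2 (0.107) or TBBC replicate 3 (0.0999), and without vehicle replicate 1 it did (difference -1.28, adjusted p = 0.0341). The other 3 probes of Cd6 gave other values. Its other retained probe had -2.11, -2.05 and -1.75 in TBBC livers and -1.86, -1.07 and -1.53 in vehicle livers. These overlapped, and the difference was -0.48 ± 0.22 (limma adjusted p = 0.245 with every probe on its own, a fit in which 1.43% of 37222 probes passed as lower). The remaining 2 probes of Cd6 and the probe of Cd5 were well above background on no array.

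**Figure D2:**
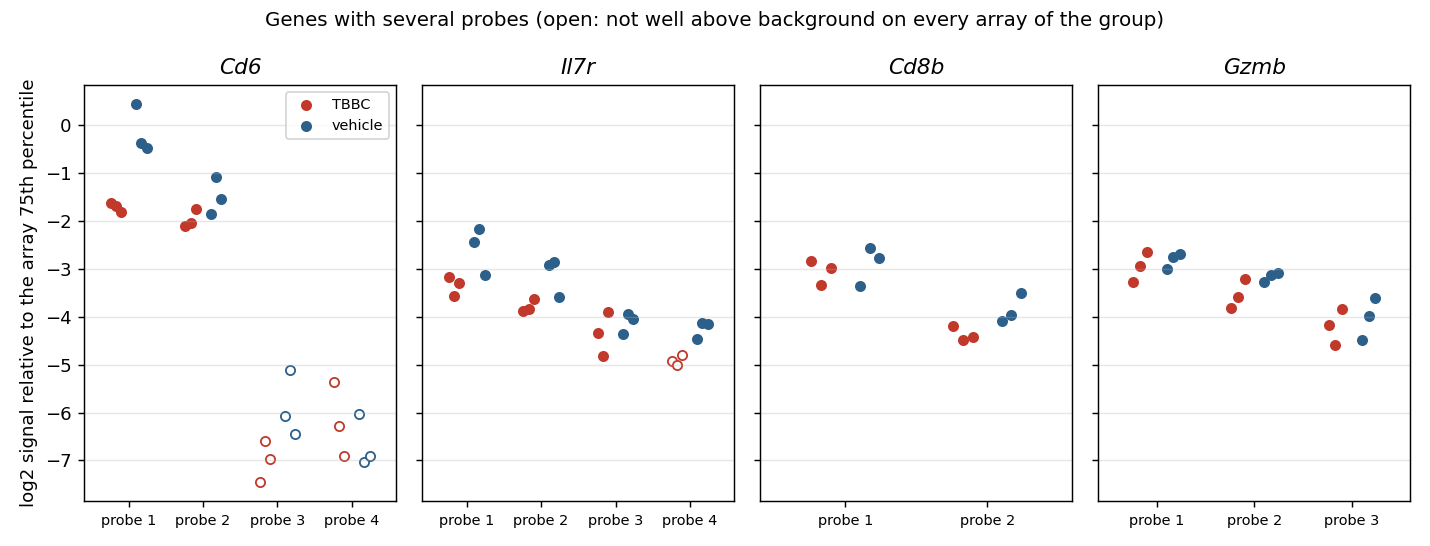
Log2 signal relative to the array's 75th percentile for every probe of 4 members with several probes, ordered by vehicle mean, TBBC arrays (red, left) beside vehicle arrays (blue, right); open points mark a group in which the probe was not well above background on all 3 arrays. The Cd6 probe with the highest level differs by -1.57 and the next by -0.48. For 3 of the 4 Il7r probes TBBC arrays lie below all vehicle arrays, and 1 of these was retained through the vehicle arrays alone.

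The receptor for interleukin-7, a survival factor of resting T cells, has its alpha chain encoded by Il7r. Its leading probe had -3.16, -3.57 and -3.30 in TBBC livers and -2.44, -2.16 and -3.13 in vehicle livers. The groups were apart by a small margin, as vehicle replicate 3 lay close to the TBBC animals, and the difference was -0.76 ± 0.26 (limma adjusted p = 0.157). Il7r had 3 further probes, all retained. On 1 of them the levels were -3.88, -3.84 and -3.63 in TBBC livers and -2.91, -2.86 and -3.58 in vehicle livers (difference -0.67 ± 0.21, limma adjusted p = 0.134 with every probe on its own). Another was well above background on all vehicle arrays and on no TBBC array, so it was retained through the vehicle arrays alone. It had means of -4.91 in TBBC livers and -4.24 in vehicle livers, 1.59-fold lower with TBBC. Its adjusted p was 0.0536 in the same limma fit. Retention through the vehicle arrays favours a lower TBBC level, so this probe adds no separate evidence. The fourth probe overlapped between groups (difference -0.23 ± 0.25). With scaling on the 75th percentile all 4 probes had a negative difference.

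Signalling proteins next to the receptor differed among themselves. Lat, the membrane adaptor that assembles the signalling complex, had -2.19, -2.61 and -2.46 in TBBC livers and -1.61, -1.85 and -2.20 in vehicle livers, with a difference of -0.53 ± 0.19 (limma adjusted p = 0.173); the highest TBBC animal (-2.19) and the lowest vehicle animal (-2.20) overlapped. The kinase Lck had -5.08, -4.60 and -4.08 in TBBC livers and -4.40, -4.24 and -3.63 in vehicle livers (difference -0.49 ± 0.31, limma adjusted p = 0.368). Without TBBC replicate 1 the difference of Lck was -0.25, without vehicle replicate 3 it was -0.26, and without TBBC replicate 3 it was -0.75. Zap70, the kinase that binds phosphorylated CD3 chains, had -1.19, -1.51 and -1.63 in TBBC livers and -1.57, -1.25 and -1.31 in vehicle livers. The Zap70 levels of the groups overlapped, and the difference was -0.07 ± 0.16 (limma adjusted p = 0.822); its sign turned with median centring (0.03) and spike-in scaling (0.14).

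None of the coreceptors and costimulators passed. Cd4, the coreceptor of helper T cells, which rat macrophages also carry, had -3.69, -3.56 and -2.61 in TBBC livers and -3.49, -3.79 and -2.72 in vehicle livers. Replicate 3 was the highest in both groups, and the difference was 0.05 ± 0.37 (limma adjusted p = 0.947), the positive one among the tested members. Cd8a and Cd8b encode the chains of the coreceptor of cytotoxic T cells, and rat NK cells also carry CD8 alpha. Cd8a had -2.65, -3.60 and -2.88 in TBBC livers and -2.72, -2.58 and -2.55 in vehicle livers (difference -0.43 ± 0.25, limma adjusted p = 0.337). TBBC replicate 2 was the low animal, and without it the difference of Cd8a was -0.15. The leading probe of Cd8b had a difference of -0.14 ± 0.24, and its other probe, on which the groups did not overlap, one of -0.52 ± 0.18 (limma adjusted p = 0.168 with every probe on its own).

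Cd27, a costimulatory receptor of the tumour necrosis factor receptor family, had -3.76, -3.88 and -3.38 in TBBC livers and -3.51, -2.66 and -3.02 in vehicle livers. The highest TBBC animal lay above the lowest vehicle animal, and the difference was -0.61 ± 0.25 (limma adjusted p = 0.206). Cxcr3, the receptor of activated T cells for interferon-induced chemokines, had a difference of -0.46 ± 0.22 (limma adjusted p = 0.262), and Ccr7, which guides naive T cells into lymph nodes, one of -0.35 ± 0.21 (limma adjusted p = 0.348). Both had overlapping groups, and without TBBC replicate 3 the difference of Ccr7 was -0.15. The probe of Cd2, an adhesion receptor of T and NK cells, and that of Cd28, the main costimulatory receptor of naive T cells, stayed at background on all 6 arrays.

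Of the 13 tested T cell members, 12 had a negative difference, with a median of -0.46. With spike-in scaling, which puts the median of all features at 0.15, 10 of them were negative and their median was -0.25. Their summed level was 2.67, 2.23 and 2.62 times the 75th percentile in TBBC livers and 3.98, 3.89 and 3.52 times in vehicle livers. Without Cd6 the sum was 2.35, 1.91 and 2.33 in TBBC livers, against 2.61, 3.11 and 2.80 in vehicle livers. The sums did not overlap in either form, and they are given for scaling on the 75th percentile only. Summed levels of the hepatocyte and cholangiocyte lists were also lower with TBBC without overlap.

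Of the B cell members, Cd79b and Blk could be measured. Cd79b, a signalling chain of the B cell receptor, had -2.59, -4.39 and -2.29 in TBBC livers and -1.91, -1.98 and -2.27 in vehicle livers. TBBC replicate 2 lay far below every other animal (signal 29.8, against 102.5 and 130.6 on the other TBBC arrays and 117.7 to 154.2 on vehicle arrays). The difference was -1.04 ± 0.53 (limma adjusted p = 0.290), and -0.38 without TBBC replicate 2. With normexp background correction it was -0.49. Blk, a Src family kinase of B cells, had -5.31, -4.78 and -4.03 in TBBC livers and -4.42, -3.95 and -3.26 in vehicle livers, overlapping, with a difference of -0.83 ± 0.40 (limma adjusted p = 0.270). It was -0.53 without TBBC replicate 1, -0.52 without vehicle replicate 3 and -0.50 with normexp. Blk was well above background on 2 of 3 TBBC arrays and entered the test through the vehicle arrays alone, which favours a lower TBBC level. At a median of -0.93 Cd79b and Blk had a larger difference than the other classes. That median was -0.59 without TBBC replicate 2 and -0.50 with normexp, and the difference between classes was not tested.

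Transcripts of the killing machinery had negative differences, of which none passed. Nkg7, a membrane protein of cytotoxic granules, had -0.13, -0.25 and 0.16 in TBBC livers and 0.07, 0.32 and 0.24 in vehicle livers (difference -0.29 ± 0.15, limma adjusted p = 0.291). Gzma, the granule protease granzyme A, had -0.54, -0.35 and 0.26 in TBBC livers and -0.04, 0.58 and 0.64 in vehicle livers (difference -0.60 ± 0.27, limma adjusted p = 0.244). For both genes TBBC replicate 3 lay within the range of the vehicle animals, and the other TBBC animals lay below all of them. Prf1, the pore-forming perforin, had -0.49, -0.47 and -0.05 in TBBC livers and -0.41, -0.27 and 0.03 in vehicle livers, a difference of -0.12 ± 0.18 (limma adjusted p = 0.718) that was 0.09 with spike-in scaling. The leading probe of Gzmb, granzyme B, differed by -0.14 ± 0.19 and its other 2 probes by -0.38 ± 0.17 and -0.18 ± 0.28, and the leading probe was at 0.07 with spike-in scaling.

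Receptors of the NK list included the gene of this class with the lowest p. Il2rb, the chain shared by the receptors for interleukin-2 and interleukin-15, had -1.38, -1.21 and -1.40 in TBBC livers and -1.07, -0.48 and -0.89 in vehicle livers. The groups did not overlap, and the difference was -0.52 ± 0.17 (limma adjusted p = 0.155). Klrd1, the CD94 chain of inhibitory and activating NK receptors, had a difference of -0.17 ± 0.17 on its leading probe and -0.45 ± 0.28 on the other, both overlapping. The other probe was retained through the vehicle arrays alone, which favours a lower TBBC level. The leading probe of Klrd1 was at 0.04 with spike-in scaling. The probe of Ncr1, the activating receptor NKp46, was well above background on 1 of 6 arrays, TBBC replicate 2, with a signal of 20.2 there and 5.3 to 16.0 on the other arrays.

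The 2 probes of Tbx21, which encodes T-bet, the transcription factor of cytotoxic and helper type 1 cells, disagreed. The first was well above background on no array, with signals of 9.2 to 14.8 in TBBC livers and 8.3 to 11.6 in vehicle livers. The other gave 78978.8 to 86131.0 in TBBC livers and 80760.3 to 89899.3 in vehicle livers (difference -0.23 ± 0.14, limma adjusted p = 0.354). Which RNA the bright probe bound was not tested, and its value is uncertain as a level of Tbx21. Because of it, the summed level of the NK and cytotoxic members was 129 to 143 in TBBC livers and 140 to 186 in vehicle livers; without Tbx21 the sum over the other 6 was 2.87, 2.98 and 3.91 in TBBC livers and 3.45, 4.52 and 4.56 in vehicle livers, overlapping. All 7 tested members of the class had a negative difference with a median of -0.23. The median over the 6 without Tbx21 was also -0.23. Under spike-in scaling, which puts the median of all features at 0.15, 4 of 7 were negative and the class median was -0.02.

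**Figure D3:**
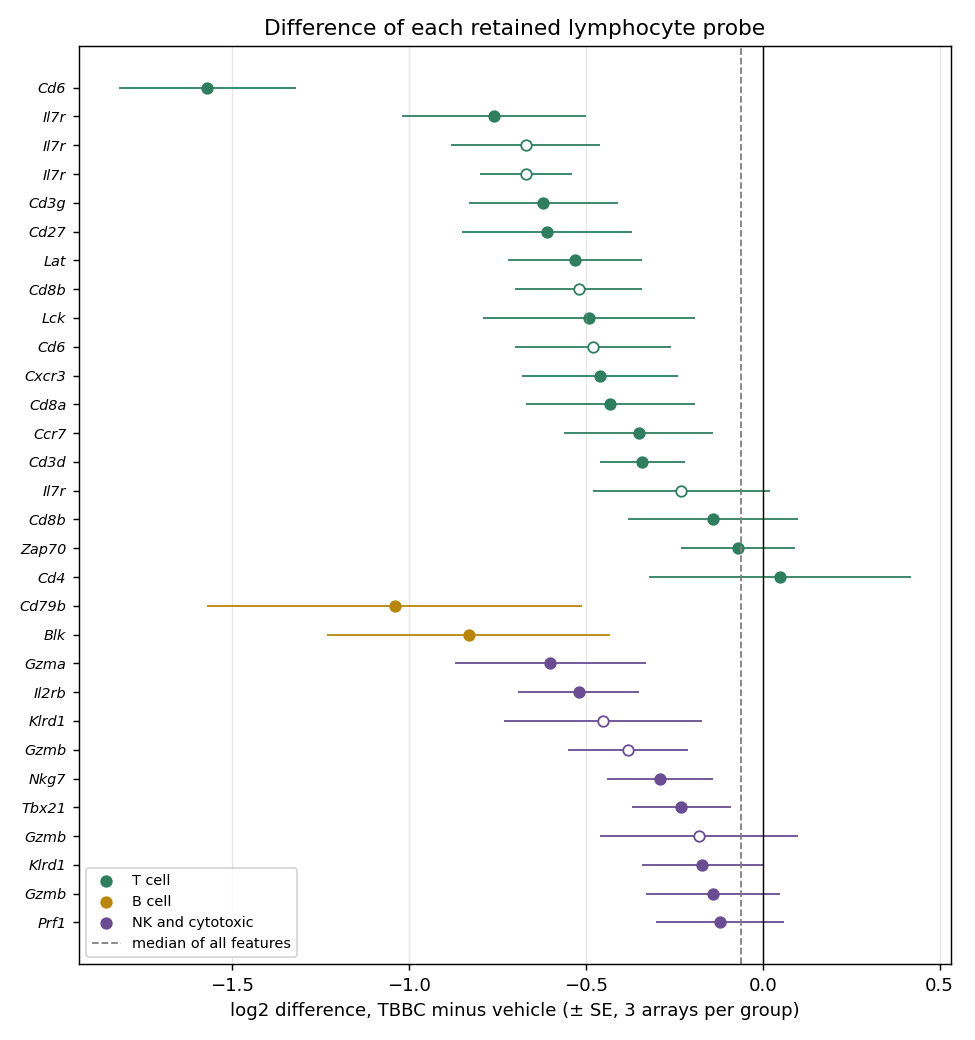
Log2 difference, TBBC minus vehicle (x axis), with its standard error for each of the 30 retained probes, grouped by class; filled points are the probe that stands for the gene and open points its other probes. All but the probe of Cd4 lie below 0 with this scaling, as do 57.6% of all 29326 tested features. Retention through the vehicle arrays alone, which favours a lower TBBC level, holds for Lck, Ccr7, Blk, an Il7r probe and the dimmer Klrd1 probe. With spike-in scaling, which puts the median of all features at 0.15, 6 of the 22 tested members lie above 0. The dashed line is the median of all features (-0.06).

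Levels also differed among animals of the same group. Among the 22 tested members TBBC replicate 3 was the highest TBBC animal for 12 and TBBC replicate 2 the lowest for 10. Vehicle replicate 1 was the lowest vehicle animal for 13 members. The median level of all tested members was -2.62, -3.13 and -2.54 in TBBC livers, against -2.17, -2.07 and -2.41 in vehicle livers.

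Further genes of the same cells, in lists that share no gene with the members, passed the limma test in 0 cases. Of 15 tested further T cell genes, 12 had a negative difference (median -0.20, or 0.01 with 6 negative under spike-in scaling); at an unadjusted p under 0.05, 3 were lower and 1 was higher. The brightest were Il2rg, the common gamma chain of cytokine receptors, with a difference of -0.15 ± 0.12, and Cd7 with -0.20 ± 0.16. Of 18 further B and plasma cell genes, 15 were negative (median -0.40, or -0.19 with 14 negative under spike-in scaling), with 5 lower and 0 higher unadjusted; Pax5, the B lineage transcription factor, differed by -0.30 ± 0.18, and Lyn, a kinase that myeloid cells also express, by 0.32 ± 0.14. Of 16 further NK and cytotoxic genes, 15 were negative (median -0.19, or 0.02 with 6 negative under spike-in scaling), with 1 lower and 1 higher unadjusted. In that list the receptor Klrk1 (NKG2D) differed by -0.16 ± 0.12 and the signalling adaptor Tyrobp, also of myeloid cells, by -0.02 ± 0.25. The median of all features was -0.06, or 0.15 with spike-in scaling. The further B and plasma cell genes lay farther from it than the further T cell and NK genes, a difference that was not tested.

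Genes that bring lymphocytes into tissue or that all white blood cells express gave no call either (limma, 0 of 24 and 0 of 17). Beside the medians below, that of all features was -0.06, or 0.15 with spike-in scaling. Of the 24 chemokines, chemokine receptors and adhesion molecules, 13 had a negative difference (median -0.13, or 0.08 with spike-in scaling; 4 lower and 2 higher unadjusted). Cxcl12, a chemokine that attracts lymphocytes through CXCR4, had 5.57, 5.16 and 5.28 in TBBC livers and 5.67, 5.66 and 5.69 in vehicle livers (difference -0.33 ± 0.13, limma adjusted p = 0.207), without overlap. S1pr1, the receptor that lets lymphocytes leave lymphoid organs, differed by -0.30 ± 0.18. Of the 17 pan-leukocyte genes, 14 were negative (median -0.19, or 0.02 with spike-in scaling; 1 lower and 0 higher unadjusted). The summed level of the pan-leukocyte list was 23.3 to 38.9 in TBBC livers and 29.0 to 38.7 in vehicle livers.

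Markers of the other cell types of the liver are given beside these values, and their part in the lymphocyte differences was not tested. Their list medians stand beside a median of all features of -0.06, or 0.15 with spike-in scaling. Of 22 Kupffer and other myeloid markers, 11 were negative and none passed (limma; 1 lower and 0 higher unadjusted; median 0.00, or 0.21 with spike-in scaling). Clec4f, a lectin of Kupffer cells, differed by -0.02 ± 0.37 and the complement component C1qb by -0.07 ± 0.38; both were highest on replicate 3 of each group. Of 16 stellate and endothelial markers, Rgs5, a pericyte gene, rose by 0.95 ± 0.12 and Pdgfrb, the growth factor receptor of stellate cells, fell by 0.73 ± 0.14 (limma adjusted p = 0.0213 and 0.0461; 3 of the 16 lower and 1 higher unadjusted; median of the list -0.16, or 0.05 with spike-in scaling). Of 8 cholangiocyte markers, Epcam rose by 1.83 ± 0.21 (limma adjusted p = 0.0147). The list's median was 0.02, or 0.23 with spike-in scaling and -0.14 with normexp. Of these 8, 4 were negative, and 1 was lower and 1 higher at an unadjusted p under 0.05. The summed level of the cholangiocyte list was 16.5 to 26.5 in TBBC livers and 33.7 to 44.5 in vehicle livers, without overlap. Such a sum follows the brightest genes of a list. The list's median level was -2.41 to -2.11 in TBBC livers and -2.57 to -1.93 in vehicle livers, overlapping. Onecut1, a transcription factor of the biliary and hepatocyte lineages named here after its values were seen, differed by -1.73 (limma adjusted p = 0.0845). Of 12 hepatocyte markers, 10 were negative with a median of -0.25 (-0.04 with spike-in scaling), and Ahsg, fetuin-A, fell by 0.83 ± 0.12 (limma adjusted p = 0.0292). At an unadjusted p under 0.05, 4 of the 12 hepatocyte markers were lower and 0 higher, and for 5 of the 12 all TBBC arrays lay below all vehicle arrays. The calls of Rgs5, Pdgfrb and Ahsg were each lost when any 1 of the 6 arrays was left out, and that of Epcam without vehicle replicate 1 (limma adjusted p = 0.0638). With spike-in scaling the calls of Pdgfrb (limma adjusted p = 0.142) and Ahsg (0.108) were lost as well. That of Pdgfrb was also lost with median centring (0.0571) and with the mean of a gene's probes (0.0644). None of the 9 erythroid markers passed (limma, 1 lower and 0 higher unadjusted), with a median of 0.08, or 0.29 with spike-in scaling. The globin genes Hba-a1 and Hba-a3 were both at 0.08. The summed level of the erythroid list, 962 to 1260 in TBBC livers and 747 to 1320 in vehicle livers, overlapped. None of the 8 proliferation markers passed (limma; 0 lower and 0 higher unadjusted; median -0.17, or 0.04 with spike-in scaling), with Pcna at -0.07 ± 0.14 and Tk1 at 0.80 ± 0.38.

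**Figure D4:**
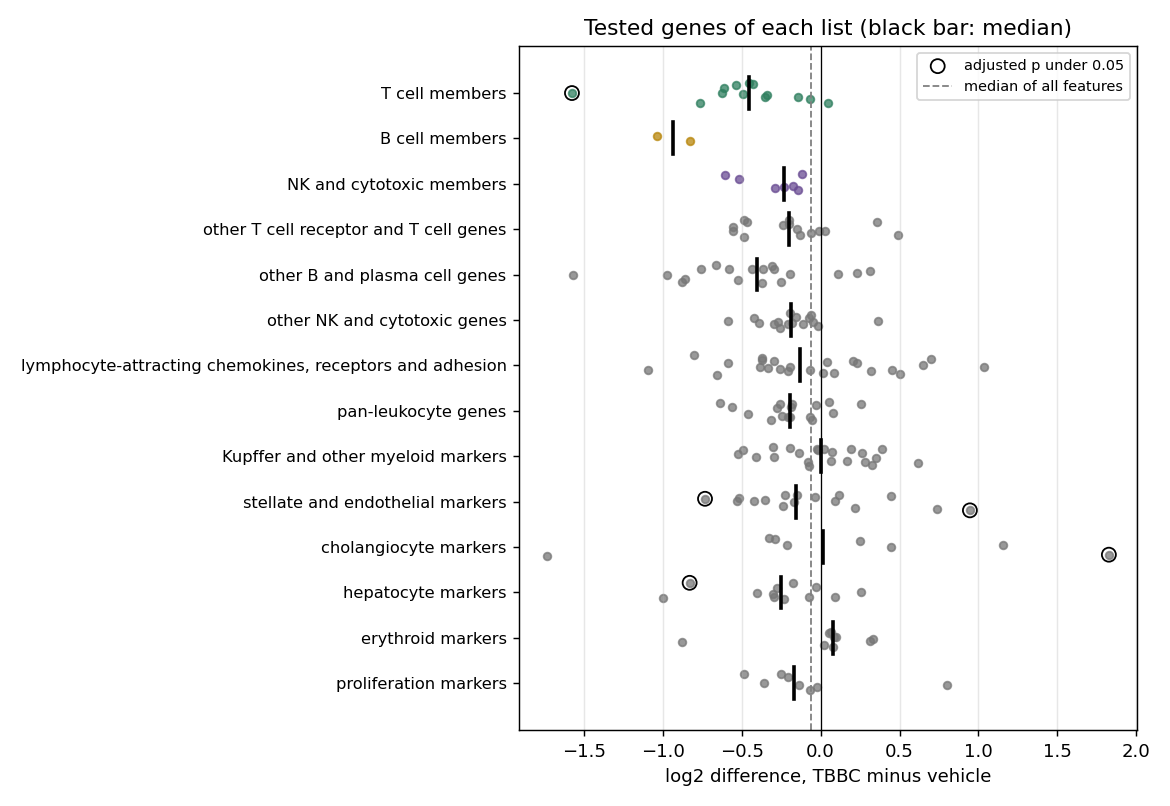
Log2 difference, TBBC minus vehicle (x axis), of every tested gene in each list; black bars are list medians, rings mark an adjusted p under 0.05 and the dashed line is the median of all features. The bars of the T, B and NK members stand at -0.46, -0.93 and -0.23, and that of the myeloid markers at 0.00.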

How the data were processed

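The authors deposited 1 scanner file per array; per the file headers it was extracted with Agilent Feature Extraction 10.7.1.1 (10.7 per the submitters' processing notes), which writes a background-subtracted intensity on a linear scale. The authors' deposited value table holds this intensity divided by 1 constant per array (column medians 0.0977, 0.0972 and 0.0974 for TBBC and 0.1012, 0.1077 and 0.1032 for vehicle). The array design names the build rn4, so probes carry no coordinates here.

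From the 61537 probes other than controls, 25 with an outlier flag were left out. Values were log2 intensity minus the array's 75th percentile. Of the probes, 37222 were well above background on every array of TBBC, of vehicle or of both and were retained. Probes were named by unversioned RefSeq accession in GRCr8 (28206 probes). Each gene entered with the probe of highest mean level, each unnamed probe by itself. limma 3.58.1 in R 4.3.3 (lmFit, eBayes, two-sided, Benjamini-Hochberg over 29326 features, threshold 0.05) compared TBBC with vehicle without a covariate, and was tested on simulated data. Single-probe values come from the same fit over all retained probes. The number of arrays limits the precision.

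The members and lists were chosen with earlier results of these data known. All 30 members were named; of each other list, up to 4 genes past the threshold, or otherwise the 2 with the highest mean signal. The genes this rule takes from the pan-leukocyte list are not reported here. Alternatives were quantile normalization, median centring, spike-in scaling (280 control spots), normexp (offset 50, median signals), other filters on dim probes, probe means, the deposited table, trend and robust eBayes, array weights, blocking on replicate number, a fit of every probe by itself (added after seeing the data) and leaving out each array.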

Additional observations from a re-analysis of the deposited data

How the results depend on the processing

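The medians of the members and of each class stayed negative in every setting run and moved by less than the spread between arrays. That spread was 0.259 for all members, 0.24 for T and 0.525 for B. It is a wide measure: the B median of -0.93 counted as unmoved at -0.50 with normexp. For NK and cytotoxic members the spread was 0.247, larger than their median of -0.23. This comparison therefore cannot show these medians to be stable. With spike-in scaling the medians were -0.23 for all members, -0.25 for T, -0.72 for B and -0.02 for NK and cytotoxic members. That of all features was 0.15. Leaving out each array in turn gave -0.50 to -0.36 for all members and -0.51 to -0.40 for T. It gave -1.30 to -0.59 for B and -0.30 to -0.20 for NK and cytotoxic members. Features past the threshold were 902 (492 higher, 410 lower), 1589 with normexp, 194 without a filter on dim probes, 211 with the replicate block and 104 to 364 when 1 array was left out. The split was 597 higher and 143 lower with spike-in scaling and 746 higher and 306 lower with median centring. Members past the threshold were 1 (Cd6), but 0 without the filter (7 at an unadjusted p under 0.05, limma), 0 with the replicate block (10 unadjusted) and 0 to 1 when 1 array was left out (2 to 10 unadjusted). The call of Cd6 was lost in 7 of 18 settings, with adjusted p from 0.0178 to 0.107; without the filter it was 0.0768 and with the block 0.0614. Without the filter the calls of Rgs5 (0.061), Pdgfrb (0.117) and Ahsg (0.0801) were lost, and with the block those of Rgs5 (0.0656), Pdgfrb (0.116), Epcam (0.0654) and Ahsg (0.0907). Equal replicate numbers gave deviations correlated at 0.004, -0.022 and 0.144, so they were not taken as pairs. Signs turned for values near 0: with spike-in scaling Cd8b 0.07, Zap70 0.14, Klrd1 0.04, Gzmb 0.07 and Prf1 0.09, with median centring Zap70 0.03, with normexp Cd4 -0.06 and with array weights Cd8b 0.03. With 1 array left out, Cd4 ranged from -0.29 to 0.36, Cd8b from -0.37 to 0.02, Zap70 from -0.19 to 0.03, Gzmb from -0.30 to 0.03 and Prf1 from -0.26 to 0.01. The cause of these shifts was not tested. Members at background (Cd2, Cd3e, Cd5, Cd28, Ncr1) cannot be compared at this signal.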
